A study of Danio rerio with 5 samples.

Results

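Proneural and neuronal differentiation factors of the basic helix-loop-helix (bHLH) family were followed in zebrafish (Danio rerio) motor neurons of the vagus nerve. Of 10 genes chosen by symbol among the 31953 genes of the count tables, 8 are described: neurod4, neurod1, neurod2, neurod6a, neurod6b, neurog1, atoh1a and olig2. Symbols were matched in any case or to a capital symbol without the final a or b, and all 8 were found. The table of names gives NEUROD6 to a pair of genes (ENSDARG00000020794 and ENSDARG00000040008), which it does not tell apart as neurod6a and neurod6b.

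Vagus motor neurons form a long column in the hindbrain, and the study compared neurons from its posterior end with neurons from its anterior end. All fish were embryos at 28 to 30 hours post fertilization (hpf) and carried Tg(isl1:Kaede), in which isl1-expressing neurons make the photoconvertible protein Kaede. Neurons at either end were photoconverted, and 100 converted cells were picked by hand after dissociation for each library. There were 3 posterior libraries (B, G and R) and 2 anterior libraries (B and G), with no treatment or mutation in either group. Selection rests on the isl1 transgene, which is not restricted to vagus motor neurons, and on the area that was illuminated. Nothing in the labels says whether libraries came from separate embryos, so p-values measure only the spread between these libraries, which may be technical.

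Proneural factors such as Neurog1 and Atoh1 pair with widely expressed E proteins, bind E-box sites in DNA and commit progenitors to a neuronal fate. They switch on Delta ligands, which through Notch and Hes/Her repressors hold neighbouring cells back from the same step, and Id proteins block them by taking up their E protein partners. NeuroD factors act later, in committed and newly born neurons, and Olig2 is best known for spinal somatic motor neurons and oligodendrocytes.

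Reads assigned to genes numbered 14932562 to 19197178 in the posterior and 17433311 to 20088585 in the anterior libraries. Posterior libraries detected 10463 (B) to 13289 (R) genes, and anterior libraries 12241 (B) and 13589 (G). Levels are counts per 1000000 (CPM), scaled by trimmed-mean (TMM) factors. They are not corrected for gene length, so no level is compared between genes. Mean CPM without that correction served only to choose genes for display, and a sum of CPM over a list weighs its genes by their reads. The cell type marker ISL1 (ENSDARG00000004023), a transcription factor of motor neurons, was present in every library. It had 1805, 1817 and 2255 CPM in posterior libraries B, G and R, against 2381 and 1848 CPM in anterior B and G. The groups overlapped. PHOX2A ran from 106 to 1466 CPM in posterior libraries, against 84.9 and 220.0 CPM in anterior libraries, with a log2 fold change of 2.02 ± 0.87 (SE), an edgeR p of 0.0384 before adjustment and an adjusted p of 0.726. TBX20 ran from 47.5 to 85.5 CPM in posterior libraries, against 3.30 and 152 CPM in anterior libraries. Of 12 branchiomotor markers described here, 10 were tested, 3 with a positive and 7 with a negative log2 fold change and a median of -0.40. The groups of all 10 overlapped. Among all tested genes 9.57% were higher and 12.3% lower in posterior cells without overlap. At an unadjusted p under 0.05, PHOX2A had a positive and TBX2 (ENSDARG00000018025) a negative log2 fold change, the TBX2 gene with -3.33 ± 1.53 (SE; edgeR adjusted p 0.726). This TBX2 gene had 0.0649, 0.0634 and 11.2 CPM in posterior libraries B, G and R, against 0 and 80.9 CPM in anterior B and G. Its difference thus rested on anterior G alone, and anterior B was the lowest library. Among the negative ones, CHAT and SLC18A3, genes of acetylcholine synthesis and vesicle loading, had log2 fold changes of -1.56 ± 1.30 and -1.39 ± 0.84 (SE; edgeR adjusted p 0.807 and 0.728). The choline transporter gene SLC5A7 (ENSDARG00000074860) went the other way, with 1.24 ± 1.35 (SE; edgeR adjusted p 0.870). The part of these markers in the results on bHLH genes was not tested.

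Of the 8 members, 5 had reads and passed the filter on low counts, and 3 had 0 counts in all 5 libraries. Under the edgeR quasi-likelihood test, 0 of the 5 had an adjusted p under 0.05, where the same was true of 0 of the 11827 genes tested (0%) and the smallest adjusted p of any gene was 0.219. At an unadjusted p under 0.05, 1 member, NEUROD4, was higher in posterior cells, against a background of 6.49% in either direction and 2.28% of tested genes, and 0 were lower, against 4.21%. NEUROD4 was also the 1 member whose libraries did not overlap between the groups. Among all tested genes 9.57% were higher in every posterior library than in either anterior library, and 12.3% were lower. DESeq2 gave an adjusted p under 0.05 to 1 member, again NEUROD4, and to 2.13% of all tested genes. Members and lists were chosen with earlier results of these data known. Their shares and medians, set beside those of all genes here and below, therefore describe the lists and test nothing.

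**Figure D1:**
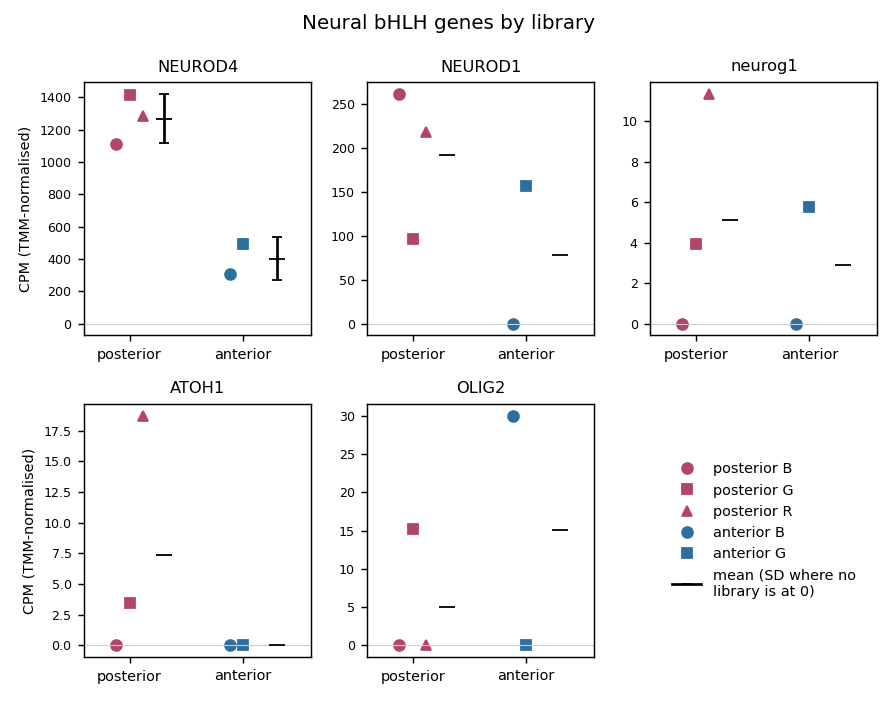
Level of the 5 detected members in each library, in TMM-normalised CPM, with posterior libraries left of anterior libraries and a separate axis from 0 for each gene. Points are libraries, black marks are group means, and SD bars are drawn for the genes with counts in every library. NEUROD4 lay at 1109 to 1413 CPM in posterior libraries, above 306 and 494 CPM in anterior libraries, while the groups of the other 4 genes overlapped.

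NEUROD4 (ENSDARG00000003469) encodes a NeuroD-family activator that is made in committed neuronal precursors and young neurons. It had 1109, 1413 and 1286 CPM in posterior libraries B, G and R, against 306 and 494 CPM in anterior B and G. Every posterior library was thus more than double either anterior library, and both groups held together more tightly than they differed. The mean was 1269 ± 153 CPM (SD, n = 3) in posterior cells and 400.2 ± 133 CPM (SD, n = 2) in anterior cells, a ratio of 3.17. These values rest on 17093 to 24364 reads per posterior library and 5188 and 9988 reads per anterior library, so the counting of reads adds little to their error. The log2 fold change was 1.66 ± 0.33 (SE), with an edgeR p of 0.00027 before adjustment, the eighth smallest of the 11827 genes, and an adjusted p of 0.359. In libraries made from 100 cells each, a lower level can come from fewer cells with the transcript or from less of it per cell, and these cannot be told apart.

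The excess of NEUROD4 was of similar size within each replicate letter, but the labels do not say that the letters pair libraries. Because the groups did not overlap, any pairing would give an excess. Posterior B had 3.62 times the CPM of anterior B, and posterior G had 2.86 times that of anterior G. When the letter entered the fit of these 4 libraries as a replicate block, the log2 fold change was 1.71 ± 0.37 (SE), with an edgeR adjusted p of 0.914. Over all 14 alternatives it stayed between 1.36, without anterior B, and 2.04, without anterior G. Among these, the same 4 libraries without a block and the fit without posterior R are a single fit listed under 2 names. The call did not stay the same: the adjusted p was 1.80e-05 in DESeq2, against 0.252 in limma-voom and 0.925 in the legacy form of the edgeR test.

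**Figure D2:**
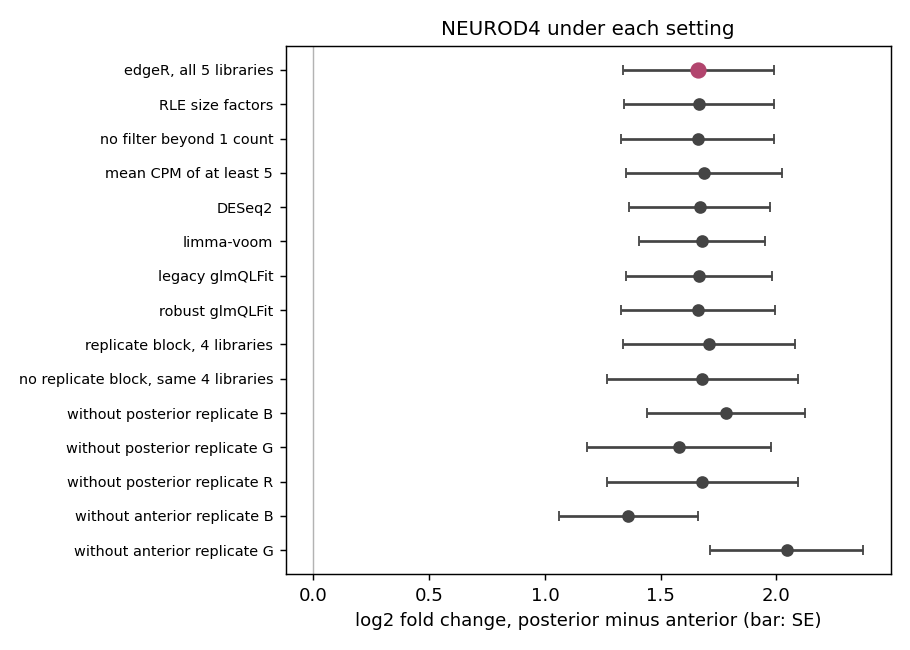
Log2 fold change of NEUROD4, posterior minus anterior, under the edgeR test with all 5 libraries (top) and under each of 14 alternatives, with bars of 1 SE. All estimates lay above 0, from 1.36 to 2.04. The same 4 libraries without a block and the fit without posterior R are a single fit.

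Neural progenitor and other cell type markers were read beside NEUROD4. Of the 17 genes of the progenitor and cycling list, 15 were detected, and their summed level was 6114, 7497 and 6351 CPM in posterior libraries B, G and R, against 9366 and 6145 CPM in anterior B and G, so the sums overlapped. Of its 15 tested genes, 1 was higher and 3 were lower in posterior cells without overlap, against 9.57% and 12.3% of all tested genes. PCNA, a DNA replication clamp, had 1420, 1450 and 1076 CPM in posterior libraries, against 876 and 859 CPM in anterior libraries, and so was higher in every posterior library, as NEUROD4 was (edgeR adjusted p 0.726). The replication helicase gene MCM2 had 716, 873 and 647 CPM in posterior libraries, against 1160 and 1156 CPM in anterior libraries (edgeR adjusted p 0.726). The progenitor genes sox19b and nes were likewise lower in every posterior library, with unadjusted edgeR p of 0.00623 and 0.0504 and an adjusted p of 0.726 each, and sox19b was at 0.195, 0 and 0 CPM there, against 40.3 and 49.8 CPM in anterior libraries. Of 16 cranial sensory neuron markers, 12 were detected, with sums of 377, 101 and 349 CPM in posterior libraries, against 236 and 370 CPM in anterior libraries. The sensory receptor genes named P2RX3 were at 0 counts in every library, while DRGX, a homeobox gene of sensory and dorsal hindbrain neurons, had 150, 61.4 and 109 CPM in posterior libraries, against 0 and 0.0990 CPM in anterior libraries. DRGX was thus higher in every posterior library, as NEUROD4 was. It was the 1 such gene of the 8 tested in its list, against 9.57% of all tested genes. The 8 rhombic lip markers, ATOH1 and atoh1b included, had sums of 104, 85.4 and 64.8 CPM in posterior libraries, against 53.3 and 61.7 CPM in anterior libraries. Posterior R was thus only just above anterior G. The sum was highest in posterior B, where it came from LHX2 (49.1 CPM) and LHX9 (54.4 CPM). ATOH1, atoh1b and atoh1c were at 0 in that library. The list went both ways: 3 of its 4 tested genes had a positive log2 fold change, while atoh1b had -1.24 ± 1.19 (SE). LHX9 had 54.4, 19.0 and 42.0 CPM in posterior libraries, against 0 and 6.88 CPM in anterior libraries (edgeR adjusted p 0.726). It was the 1 of the 4 tested genes of the list that was higher in every posterior library, against 9.57% of all tested genes. Of 23 interneuron markers, 16 were detected, with sums of 166, 96.1 and 146 CPM in posterior libraries, against 174 and 268 CPM in anterior libraries, and both genes named SLC17A6 were at 0. Of the 6 tested, 2 had a positive and 4 a negative log2 fold change. VSX1 had 74.7, 35.3 and 120 CPM in posterior libraries, against 20.2 and 28.7 CPM in anterior libraries (edgeR adjusted p 0.726). VSX1 was thus the 1 of these 6 that was higher in every posterior library, against 9.57% of all tested genes. PAX2 (ENSDARG00000028148) had 0, 22.8 and 0 CPM in posterior libraries, against 0.0590 and 133 CPM in anterior libraries, so its excess rested on anterior G. Of 16 markers of non-neural cells, 9 were detected, with sums of 0.454, 20.2 and 46.3 CPM in posterior libraries, against 364 and 26.0 CPM in anterior libraries. Anterior B, the library lowest in NEUROD4, thus held the most non-neural transcripts, and without it the log2 fold change of NEUROD4 was 1.36. The part of other cells in the NEUROD4 difference was not tested.

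NEUROD1 (ENSDARG00000019566) encodes a related activator that drives neuronal differentiation and is known in zebrafish from cranial ganglia. It had 262, 97.1 and 219 CPM in posterior libraries B, G and R, against 0 and 157 CPM in anterior B and G. Anterior B alone had no reads, and anterior G lay inside the posterior range. The log2 fold change was 1.24 ± 0.87 (SE), with an edgeR adjusted p of 0.755. It was 0.30 ± 0.66 (SE) when anterior B was left out. Few genes of this level had such a gap. Its mean over the other 4 libraries was 184 CPM. Of 1514 genes at 100 to 300 CPM in those libraries, 4 (0.264%), NEUROD1 among them, had 0 counts in anterior B. This share was looked up because NEUROD1 was at 0 there, so it is no test. The same share for posterior B was 11 of 1588 genes (0.693%). Within the posterior group NEUROD1 did not follow NEUROD4, since posterior G was lowest for NEUROD1 and highest for NEUROD4.

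NEUROD2 (ENSDARG00000016854) and both genes named NEUROD6 encode NeuroD factors that are known in mammals from maturing forebrain neurons. They had 0 counts in all 5 libraries. A count of 0 allows up to 3 counts, which is 0.158 to 0.195 CPM in posterior and 0.148 to 0.177 CPM in anterior libraries, and this floor covers the counting of reads only.

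The proneural gene neurog1 (ENSDARG00000056130), needed in zebrafish for cranial sensory neurons, was close to the limit of detection. It had 0, 3.93 and 11.3 CPM in posterior libraries B, G and R, against 0 and 5.74 CPM in anterior B and G. Both B libraries were at 0, and the G libraries differed by less than the posterior libraries did among themselves. The edgeR adjusted p was 0.956, and the sign of the log2 fold change of 0.82 ± 1.78 (SE) turned to -0.62 when posterior R was left out.

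ATOH1 (ENSDARG00000055294), matched as atoh1a, is a proneural gene of the rhombic lip, the dorsal edge of the hindbrain that gives rise to migrating neurons. It had 0, 55 and 355 reads in posterior libraries B, G and R (0, 3.49 and 18.7 CPM), against 1 and 0 reads in anterior B and G. Most of the reads came from posterior R, and posterior B shared the 0 of anterior G. The edgeR adjusted p was 0.726, and because the anterior libraries lay at or under 3 counts, the fitted fold change depends on the constant added to counts and is not given. Its relative atoh1b had 0, 46.4 and 3.75 CPM in posterior libraries, against 53.2 and 24.6 CPM in anterior libraries, with anterior B highest.

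OLIG2 (ENSDARG00000040946) was found in 1 library of each group. It had 0, 240 and 0 reads in posterior libraries B, G and R, against 509 and 0 reads in anterior B and G. The libraries with reads carried different letters, and the edgeR adjusted p was 0.880. Of the 5 tested members, 4 had 0 counts in at least 1 library, as did 41.8% of all tested genes. Of genes at 10 to 30 CPM in the other libraries, 1144 of 3020 (37.9%) had 0 counts in posterior B, 448 of 2994 in posterior R and 453 of 2967 in anterior G. Of 9 markers of somatic motor neurons and oligodendrocytes, SOX10, mbpa and olig1 were at 0 in every library. The summed level of that list was 102, 233 and 323 CPM in posterior libraries, against 213 and 459 CPM in anterior libraries.

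Of 16 other neural bHLH genes with a symbol in the table, 8 were tested and 8 were at 0 counts in every library. In the edgeR test 0 had an unadjusted p under 0.05, against 6.49% of all tested genes. A positive log2 fold change was found for 5 and a negative one for 3, and the median was 0.49, against -0.055 over all tested genes. The gene shown for its highest mean CPM in the list was nhlh2 (ENSDARG00000025495), a bHLH factor that appears in newly born neurons. It had 714, 617 and 477 CPM in posterior libraries B, G and R, against 293 and 410 CPM in anterior B and G. All posterior libraries were above both anterior libraries, and the log2 fold change came to 0.77 ± 0.37 (SE), with an edgeR adjusted p of 0.726. BHLHE22 was chosen after its values were seen, because it was the other gene of the list without overlap. It had 73.5, 71.2 and 42.9 CPM in posterior libraries, against 17.2 and 24.3 CPM in anterior libraries (edgeR adjusted p 0.726). Without overlap, 2 of the 8 tested genes were higher in posterior cells, against 9.57% of all tested genes. The order within groups differed, since nhlh2 was highest and NEUROD4 lowest in posterior B among posterior libraries, while both were lower in anterior B than in anterior G.

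No gene among the partners and inhibitors of these factors had an edgeR adjusted p under 0.05, where the same held for all 11827 genes tested. Of the E proteins, 3 genes were matched and tested and 0 had an unadjusted edgeR p under 0.05, against 6.49% of all tested genes. For so few genes a count of 0 is close to that share. TCF12 had 55.2, 2.15 and 70.0 CPM in posterior libraries B, G and R, against 167 and 79.3 CPM in anterior B and G (edgeR adjusted p 0.726). It was the 1 gene of these 3 without overlap, where 12.3% of all tested genes were lower in every posterior library. tcf3a had 0, 86.7 and 60.4 CPM in posterior libraries, against 73.9 and 83.5 CPM in anterior libraries. tcf3b ran from 19.2 to 78.4 CPM in posterior libraries, against 38.3 and 40.9 CPM in anterior libraries. An E protein transcript was therefore present in every library, including posterior B, which had no tcf3a reads.

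All 5 Id genes were tested, and the median log2 fold change was -0.43. An unadjusted edgeR p under 0.05 was found for 0 of them, against 6.49% of all tested genes, which is close for so few genes. ID1 had 514, 415 and 513 CPM in posterior libraries B, G and R, against 874 and 426 CPM in anterior B and G. ID2 (ENSDARG00000055283) had 140, 76.6 and 104 CPM in posterior libraries, against 27.7 and 122 CPM in anterior libraries. Anterior B thus held the highest ID1 and the lowest ID2 of all libraries. ID3 ran from 16.9 to 32.1 CPM in posterior libraries, against 0.413 and 18.1 CPM in anterior libraries. ID4 ran from 63.4 to 111 CPM in posterior libraries, against 110 and 170 CPM in anterior libraries. id2b was at 0 in posterior G and R, and no Id gene separated the groups without overlap.

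**Figure D3:**
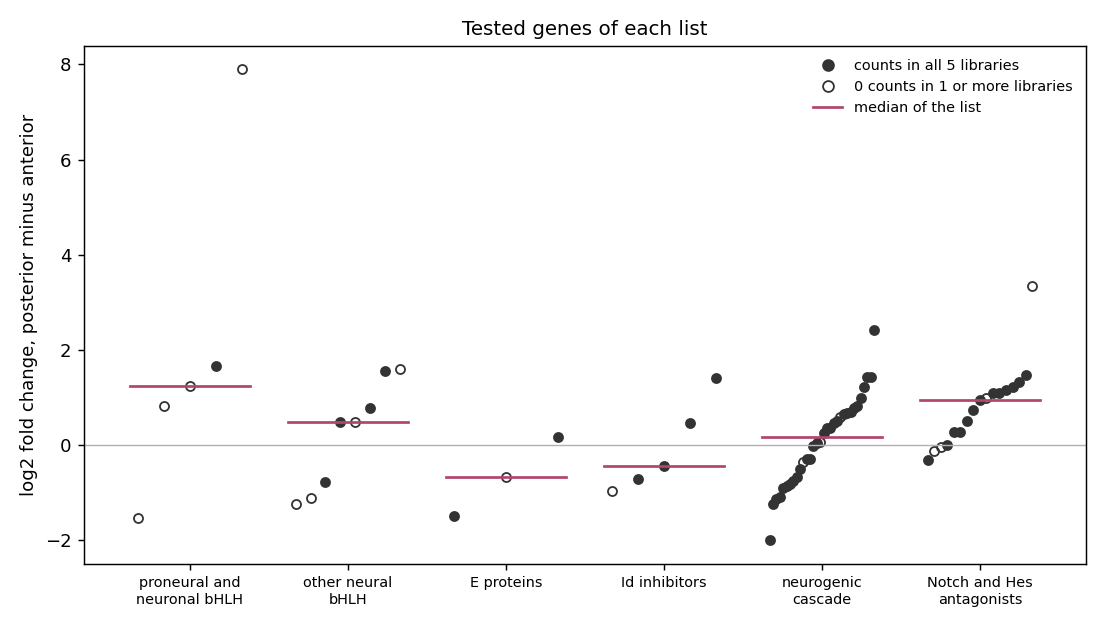
Log2 fold change, posterior minus anterior, of every tested gene in the member list and in 5 related lists, with genes spread along each column by size and lines at the medians. Open points are genes with 0 counts in at least 1 library, whose fitted values depend on the constant added to counts. In the 5 related lists medians ran from -0.67 in E proteins to 0.94 in Notch and Hes antagonists.

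The neurogenic cascade list holds genes that act with or after proneural factors in newly born neurons. Of 38 genes, 32 were tested, 18 with a positive and 14 with a negative log2 fold change and a median of 0.16. None had an edgeR adjusted p under 0.05, while 3 were higher and 2 lower in posterior cells at an unadjusted p under 0.05. Among all tested genes these shares were 2.28% and 4.21%. Without overlap between the groups, 6 of the 32 were higher and 3 lower in posterior cells, against 9.57% and 12.3% of all tested genes. INSM1 (ENSDARG00000091756), a zinc finger repressor of newly committed neurons, had 2471, 2536 and 2441 CPM in posterior libraries B, G and R, against 369 and 1472 CPM in anterior B and G. The posterior libraries were nearly level while those from the anterior end lay far apart, and the log2 fold change was 1.43 ± 0.43 (SE; edgeR adjusted p 0.726). HES6 (ENSDARG00000007097), which in the mouse favours neuronal differentiation against Hes1, had 476, 570.3 and 374 CPM in posterior libraries, against 227 and 179 CPM in anterior libraries (log2 fold change 1.22 ± 0.41, SE; edgeR adjusted p 0.726). dlb, a Delta ligand gene of newly committed cells, had 877, 1335 and 1059 CPM in posterior libraries, against 474 and 785 CPM in anterior libraries (log2 fold change 0.79 ± 0.33, SE; edgeR adjusted p 0.726). In each of these 3 genes the groups did not overlap, as in NEUROD4, and in INSM1 and dlb, as in NEUROD4, anterior B was the lowest library and posterior G the highest. The other gene named INSM1 (ENSDARG00000053301) overlapped and went the other way, at low levels. It had 0.454, 7.04 and 13.5 CPM in posterior libraries, against 16.9 and 10.5 CPM in anterior libraries (log2 fold change -0.86 ± 1.29, SE). The other gene named HES6 (ENSDARG00000019335) also overlapped, with 280, 483 and 482 CPM in posterior libraries, against 112 and 302 CPM in anterior libraries.

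The genes of the list that were lower in posterior cells at an unadjusted edgeR p under 0.05 were the pair named STMN2, which encode microtubule regulators of growing axons. STMN2 (ENSDARG00000033234) had 26.5, 49.6 and 93.7 CPM in posterior libraries B, G and R, against 84.0 and 374 CPM in anterior B and G. STMN2 (ENSDARG00000070537) had 235, 208 and 208 CPM in posterior libraries, against 236 and 688 CPM in anterior libraries. In both genes anterior G alone stood well above the rest and anterior B was close to the posterior libraries, with an edgeR adjusted p of 0.726 each. The pan-neuronal RNA-binding protein gene ELAVL3, shown for its place in the same list and chosen after its values were seen, had 3353, 3529 and 2841 CPM in posterior libraries, against 3508 and 4408 CPM in anterior libraries (edgeR adjusted p 0.738).

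**Figure D4:**
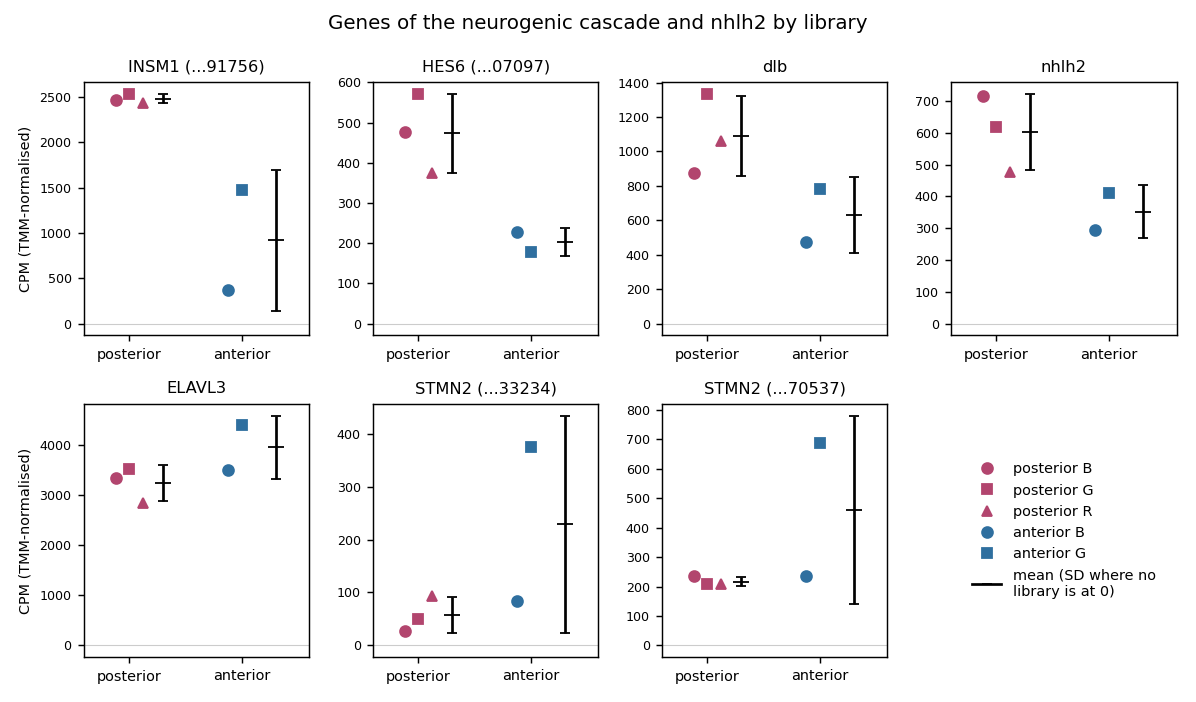
Level of INSM1, HES6, dlb, nhlh2, ELAVL3 and both STMN2 genes in each library, in TMM-normalised CPM, with posterior libraries left of anterior libraries, group means and SD bars (n = 3 posterior, n = 2 anterior), and the end of the identifier in brackets where a symbol is shared. The first 4 genes lay higher in every posterior library, while both STMN2 genes were highest in anterior G.

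Notch receptors and Hes/Her repressors, which oppose proneural factors, were tested for 17 of the 18 genes of the list. A positive log2 fold change was found for 14 and a negative one for 3, with a median of 0.94 against -0.055 over all tested genes. None had an edgeR adjusted p under 0.05, and 2 were higher and 0 lower in posterior cells at an unadjusted p under 0.05. Among all tested genes these shares were 2.28% and 4.21%. Without overlap between the groups, 4 of the 17 were higher and 0 lower in posterior cells, against 9.57% and 12.3% of all tested genes. her15.2 had 344, 317 and 258 CPM in posterior libraries B, G and R, against 109 and 163 CPM in anterior B and G (log2 fold change 1.16 ± 0.46, SE; edgeR adjusted p 0.726). her4.5 had 294, 242 and 151 CPM in posterior libraries, against 140 and 45.7 CPM in anterior libraries (log2 fold change 1.32 ± 0.60, SE; edgeR adjusted p 0.726). Both repressor genes were above the anterior libraries in every posterior library, by a small margin for her4.5 in posterior R. The her4 and her15 genes are near-identical neighbours, so reads aligned to several places are not in these counts. The copies cannot be counted as separate observations, yet the gene counts and the median given for this list include each of them.

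The genes whose pattern over the 5 libraries lay nearest to that of NEUROD4 were kmt5ab, RRM2, NUP85, rxrga and ENSDARG00000035770, which has no symbol in the table. They were taken by Euclidean distance of centred log2(CPM + 1) among the 2132 other tested genes with a mean of at least 100 CPM, and their distances ran from 0.299 to 0.489. RRM2, a subunit of ribonucleotide reductase that supplies DNA synthesis, had 125, 181 and 133 CPM in posterior libraries B, G and R, against 31.9 and 66.9 CPM in anterior B and G. rxrga, a retinoid X receptor gene, had 254, 493 and 369 CPM in posterior libraries, against 86.3 and 141 CPM in anterior libraries. In all 5 genes, as in NEUROD4, each posterior library was above both anterior libraries and anterior B was the lowest. The genes were chosen for their likeness to NEUROD4, so this shared pattern follows from the choice and is no separate result. No other proneural or neuronal bHLH gene was among the 5. Of the other members described, only NEUROD1, at a mean of 147 CPM, was high enough to be a candidate.

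**Figure D5:**
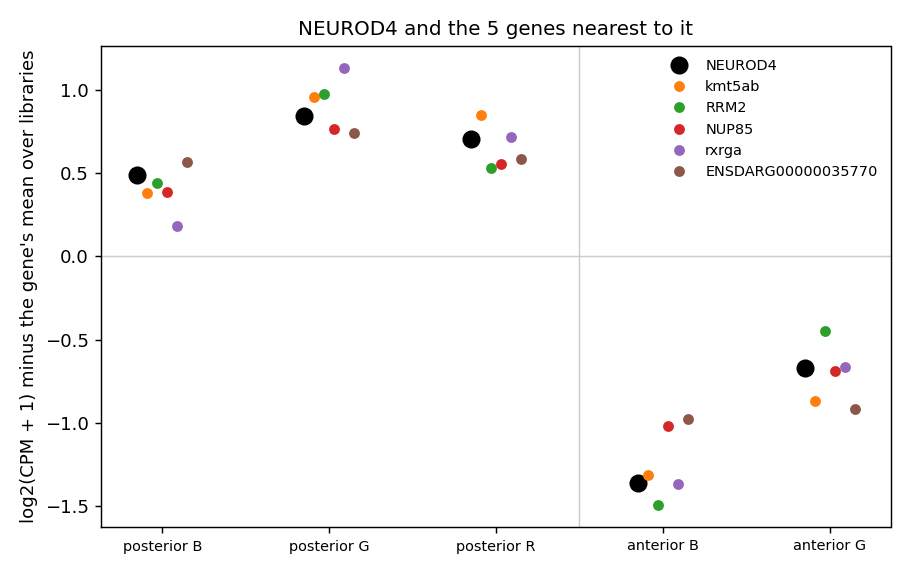
Centred log2(CPM + 1) of NEUROD4 (large black points) and of the 5 genes nearest to it, by library, with posterior libraries left of the vertical line and anterior libraries right of it. All 6 genes lay above their own mean in the 3 posterior libraries and below it in the 2 anterior libraries. The 5 genes were chosen for this likeness.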

How the data were processed

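Full-length cDNA from 100 picked cells per library was amplified with a SMART-Seq v4 kit and made into Nextera XT libraries, as the labels' protocols state. The authors deposited raw read counts per Ensembl gene, 1 table per library. The submitters' processing notes name bcl2fastq 1.8.4, TopHat2 2.1.0, HTSeq 0.6.1 and the build GRCz10. Annotation release and use of strand are not given in the sources used here. Of each table's reads 69.0% to 72.5% were assigned to a gene, and the rest stayed out of library sizes. Reads with several alignments are among those left out, which lowers counts of near-identical copies.

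Counts of all genes kept by filterByExpr (minimum count 10, minimum total 15) were tested with edgeR 4.0.16 in R 4.3.3: TMM, estimateDisp, glmQLFit with legacy set to false, and glmQLFTest, posterior minus anterior, two-sided, Benjamini-Hochberg over all 11827 genes, threshold 0.05. The SE is the log2 fold change divided by the root of F. CPM uses the fit's library sizes and TMM factors. Zero shares count genes by their mean over the other 4 libraries. The code was tested on simulated counts. Symbols came from a table of identifiers (26121 of 31953 matched); 16 of 191 list symbols had no match and were not used here. Members and lists were chosen with earlier results of these data known. Some chosen genes, 2 members among them, are not reported here; they stayed in every fit. The genes named by rule are the other members, genes of the other neural bHLH, cascade and Notch lists with an unadjusted p under 0.05 or else the one with the highest mean CPM, E proteins and Id genes, 3 motor neuron markers, and the 5 genes nearest to the member with the highest mean CPM. All other genes named (atoh1b, BHLHE22, ELAVL3, the other genes named INSM1 and HES6, and the remaining cell type markers) were chosen after their values were seen. Levels per length were not computed. Alternatives included limma 3.58.1 (voom), DESeq2 1.42.0 and each library left out. Floors and counts cover counting error only.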

Additional observations from a re-analysis of the deposited data

How the results depend on the processing

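The count of 0 genes and 0 members with an adjusted p under 0.05 was also found with RLE size factors, both other filters, limma-voom, the legacy and robust edgeR fits, the replicate block, and without each posterior library. DESeq2 called 252 genes, of which 1 was a member (NEUROD4). Leaving out 1 library gave 0 to 7 genes (1 without anterior B, 7 without anterior G, where the lone anterior library is assumed to vary like the posterior ones) and 0 to 0 members. Members with an unadjusted p under 0.05 numbered 2 in DESeq2, where ATOH1 joined NEUROD4 (p 0.0407). Without anterior G, the log2 fold change of NEUROD1 was 14.7. The lone anterior library of that fit, anterior B, had 0 NEUROD1 counts, so this size depends on the constant added to counts. NEUROD4 and NEUROD1 kept a positive log2 fold change in all 14 alternatives. ATOH1 had a positive value in the 9 alternatives that could fit it. Its anterior libraries lay at or under 3 counts, so it passed the filter through posterior libraries only and its sign was fixed in advance. The DESeq2 p of ATOH1 is therefore no separate support.

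For members near 0 the sign was not stable. The replicate block over the 4 libraries that share letters gave -0.50 for neurog1. The same 4 libraries without a block, which is also the fit without posterior R, gave -0.62. With 1 library left out, the values ran from -0.62 to 9.53 for neurog1 and from -2.65 to 9.40 for OLIG2. Each upper value came from a fit whose lone anterior library was at 0 counts, so its size depends on the constant added to counts. Other causes of the changes in sign were not tested. The letters share no stated source. Deviations from the group mean correlated at -0.0019 between B and 0.0063 between G libraries across genes. With 2 anterior libraries, the deviation of anterior B is that of anterior G with its sign turned. These correlations therefore cannot decide whether the letters pair. The block left 211 genes with an unadjusted p under 0.05, against 524 without it in the same libraries and 768 in all 5, and NEUROD4 was among them each time. NEUROD4 had at least 5188 reads in every library, while neurog1, ATOH1 and OLIG2, at under 10 CPM on average, each had 0 reads in some.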
